A study of Drosophila melanogaster with 18 samples.

Results

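Late-passage cultures of the Drosophila melanogaster cell line R7 were compared with late-passage cultures of the line R3, using 3 arrays of each line taken at passages P16, P17 and P19. These are 6 of the 18 arrays of a series that followed both lines from P2 to P19 as they became established cultures. Total RNA was hybridised to Affymetrix 3' expression arrays, with cells grown in T flasks in Schneider's medium with serum and antibiotics. The labels give each sample its line and passage and no genotype, sex or tissue of origin. The arrays were chosen by label alone. Each line is 1 culture series, and its successive passages stand in for replicates, so p-values measure the spread between passages and arrays and not between independent cultures.

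Established Drosophila lines keep parts of the gene programme of the cells they grew from, such as receptors, adhesion molecules and transcription factors, and each line keeps a different part. The comparison below covers such genes first and then how transcript levels lie along the chromosome arms. In Drosophila the arms 3L and 3R meet at the centromere of chromosome 3, and chromosome 4 is a very small chromosome with few genes.

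The values are intensity per probe set on a linear scale, as deposited, and were set to a floor of 32 before log2 because weaker signal varied strongly between arrays. Of 18769 non-control probe sets, between 44.1% and 48.5% exceeded it on each late array, and the 8981 that did so on at least 2 of the 6 arrays were tested with limma. A probe set was called at a Benjamini-Hochberg adjusted p under 0.05. Values are given in the order P16, P17 and P19. The number of arrays limits the precision.

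The array labelled R3 P19 stood apart from the other R3 late arrays. Its log2 values correlated best with those of R3 P2 replicate 1 (Pearson r = 0.993 across probe sets, which are not independent), and less with R3 P16 (r = 0.944) and R3 P17 (r = 0.943), which correlated with each other at 0.992. It differed at least 2-fold from the mean of R3 P16 and P17 for 654 tested probe sets, against 46 between R3 P17 and R3 P16, and it differed 2-fold from R3 P2 replicate 1 for 26. A further 667 probe sets lay above the floor on R3 P19 and on no other late array, and so were not tested. Of these, 92 exceeded 128, and all 92 also lay above the floor on R3 P2 replicate 1. Hand, a transcription factor gene of heart and blood progenitors, was among them, with 14.4, 15.2 and 14.2 in R7 and 8.72, 10.5 and 1713 in R3, against 1698 in R3 P2 replicate 1. The R3 P19 values are therefore shown apart, and the calls are also given without this array. The cause of its difference was not tested.

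With all 6 arrays, 121 probe sets were higher and 71 lower in R7 than in R3, which is 2.14% of those tested (1.35% higher and 0.791% lower). Taken as 1 probe set per gene (7094 genes, the brightest probe set with exactly 1 symbol), 155 genes were called (2.18%), 102 higher (1.44%) and 53 lower (0.747%), and 72 and 39 of these differed at least 2-fold. Without R3 P19, 306 probe sets were higher (3.41%) and 321 lower (3.57%), 6.98% in all, and all 192 probe sets called with the 6 arrays were among them. By gene, that is 504 calls (7.1%), 259 higher (3.65%) and 245 lower (3.45%). When all 18 arrays were fitted together, with 1 shared estimate of the spread, 816 probe sets (9.09%) were called, 559 higher (6.22%) and 257 lower (2.86%). By gene, that is 671 calls (9.46%), 473 higher (6.67%) and 198 lower (2.79%), and 147 of the 155 genes were among them. At an unadjusted p under 0.05, 802 genes were higher (11.3%) and 511 lower (7.2%), which is the background for the unadjusted counts given for gene lists. The median difference over all tested genes was -0.01 (log2, R7 minus R3). Signal present in one line alone was rare: 57 tested probe sets lay above the floor on all 3 R7 and no R3 array, and 67 on all 3 R3 and no R7 array.

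Hs3st-A had the largest called difference toward R7 and the regulator gene mid the next, and the 12 largest also included the patterning genes opa and Kr. The product of Hs3st-A adds 3-O-sulfate to heparan sulfate chains on the cell surface. It had 1991, 2360 and 2190 in R7, against 153, 121 and 11.3 in R3. All R7 arrays lay far above all R3 arrays, and R3 P19 was at the floor. The difference was 4.70 (log2, SE 0.56, limma adjusted p = 0.0134), and without R3 P19 it was 16.0-fold (adjusted p = 0.000874).

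The gene mid, a T-box transcription factor of the heart and the embryonic segments, was above the floor on all R7 arrays and on no R3 array. It had 803, 427 and 510 in R7, against 2.13, 8.38 and 11.6 in R3, at least 17.5-fold higher (limma adjusted p = 0.00227). R3 P16, P17 and P19 were all at the floor. The pair-rule zinc finger gene opa had 523, 359 and 483 in R7 and 32.5, 29.5 and 20.9 in R3, a difference of 3.80 (log2, SE 0.16, adjusted p = 0.00117). Kr, a zinc finger gene of segmentation and of neuroblast timing, had 1709, 1296 and 1373 in R7 and 269, 128.2 and 142 in R3, 8.54-fold higher (log2 SE 0.29, adjusted p = 0.00744). The groups did not overlap in any of these genes, which was a condition of their choice.

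A pair of related adhesion genes moved in opposite directions. The gene fred had 673, 456 and 321 in R7, against 19.5, 16.8 and 28.6 in R3, at least 14.4-fold higher (limma adjusted p = 0.00369). Its relative ed, which like fred encodes an immunoglobulin-domain protein of cell contacts, had 148, 115 and 150 in R7, against 450, 363 and 730 in R3, 3.60-fold lower (adjusted p = 0.0258). So fred was above the floor in R7 alone, and ed was above it in both lines.

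The other genes of largest rise, with no overlap of arrays, were orb (3.59 on the log2 scale), CG15236 (3.66), CG3857 (3.19), Cyp4g15 (3.01), CngA (2.98), Adgf-D (2.86) and Syn1 (2.75). The gene orb encodes an RNA-binding translational regulator of the germline and had 680, 410 and 725 in R7, against 47.9, 20.9 and 75.1 in R3 (limma adjusted p = 0.00859). It was the 1 called member of 13 tested germline and piRNA genes, against 1.44% of all genes called higher. In 4 of the 13 all R7 arrays lay below all R3 arrays and in 1 above, against 10.7% and 15.3% of all genes. The median of this list was -0.15 (log2), and 1 member was called lower without R3 P19. CngA encodes a cyclic nucleotide-gated channel subunit and stayed bright in both lines, with 3412, 3218 and 3592 in R7 and 604, 196 and 676 in R3 (adjusted p = 0.0317). Adgf-D belongs to the adenosine deaminase-related growth factors, and a second member, Adgf-A, chosen after its values were seen, was also higher, with 4829, 4302 and 4844 in R7 and 1960, 1473 and 896 in R3 (3.39-fold, adjusted p = 0.0338). A second, dim probe set of CG3857 did not show the difference, with 39.6 to 53.8 in R7 and 41.7 to 52.1 in R3.

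**Figure D1:**
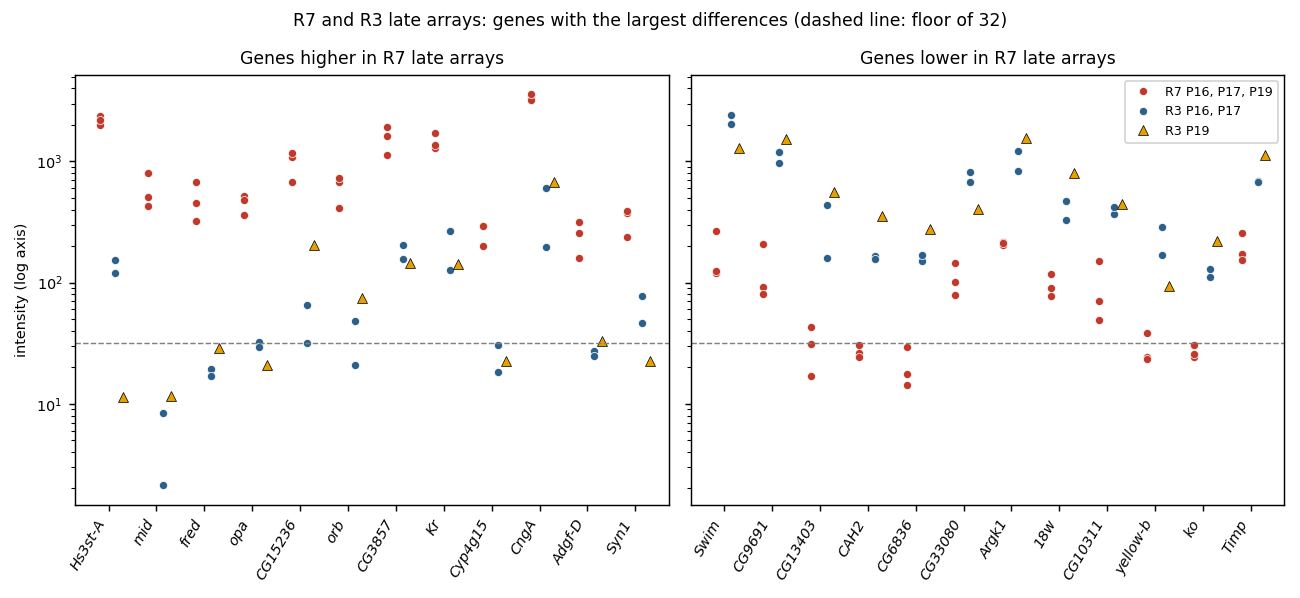
Intensity (log axis) of the 12 genes with the largest called differences in each direction; circles are the R7 arrays (left in each column) and R3 P16 and P17, and the triangle is R3 P19. Hs3st-A lies between 1991 and 2360 in R7 and below 153 in R3, and Swim lies between 121 and 268 in R7 and above 1291 in R3.

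The largest difference toward R3 was in Swim, and the largest falls included an enzyme of energy storage and a receptor. Swim, which encodes a secreted protein that binds the ligand Wingless, had 121, 268 and 124 in R7, against 2415, 2043 and 1292 in R3, 11.7-fold lower (log2 SE 0.38, limma adjusted p = 0.00976). The arginine kinase gene Argk1, whose product buffers ATP, had 215, 203 and 211 in R7, against 835, 1223 and 1567 in R3, 5.58-fold lower (log2 SE 0.23, adjusted p = 0.00717). The R7 arrays lay within a narrow band for Argk1, and the spread was on the R3 side. 18w, a receptor of the Toll family, had 117, 76.8 and 90.2 in R7 and 330, 471 and 800 in R3, 5.35-fold lower (adjusted p = 0.0216).

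CAH2, a carbonic anhydrase gene, CG6836 and ko were at the floor on all 3 R7 arrays and above it on all 3 R3 arrays, with 158 to 355, 151 to 277 and 110 to 221 in R3. Their differences were therefore bounds: at least 6.57-fold, 6.00-fold and 4.59-fold lower. CG9691 (-3.40, log2), CG13403 (-3.26), CG33080 (-2.53), CG10311 (-2.33) and yellow-b (-2.29), a gene of the yellow family, completed the 12 largest falls with Timp, which is described with the matrix genes. In CG13403 and yellow-b, 2 of the 3 R7 arrays were at the floor. Of the 24 genes with the largest differences, 8 were called in each of the 6 fits that left out 1 array: mid, fred, opa, Cyp4g15, CG3857, Adgf-D, Argk1 and CG6836. Among all 155 called genes, 27 were, while 32 were still called without R7 P19 and 37 without R3 P17.

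The extracellular matrix and integrin lists had called members on the lower side only. Of 17 tested basement membrane and matrix genes, 2 were lower and 0 higher, and of 14 integrin and focal adhesion genes, 1 was lower and 0 higher, against 0.747% of all genes called lower. Timp, the inhibitor of matrix metalloproteases, had 171, 255 and 154 in R7 and 689, 678 and 1120 in R3, 4.27-fold lower (limma adjusted p = 0.0176), and a second probe set gave the same direction. The laminin alpha chain gene wb had 132, 132 and 103 in R7 and 583, 542 and 319 in R3, 3.83-fold lower (adjusted p = 0.0176).

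The integrin alpha subunit gene mew, whose product binds laminin, had 273, 241 and 255 in R7 and 594, 750 and 747 in R3, 2.71-fold lower (log2 SE 0.13, limma adjusted p = 0.00717). The call for mew held in all 6 fits without 1 array. AdamTS-B, a secreted metalloprotease gene outside these lists and chosen after its values were seen, was 4.27-fold lower (adjusted p = 0.0216). The bulk collagen IV genes were not called: vkg had 4919, 4012 and 4339 in R7 and 5963, 6350 and 3155 in R3, and Col4a1 had 4343, 3965 and 4074 in R7 and 5194, 5468 and 3263 in R3. The medians of these lists were -0.11 and -0.23 (log2), beside -0.01 for all genes.

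Of 11 tested Notch pathway genes, 1 was lower and 1 higher, against 0.747% and 1.44% of all genes. The glycosyltransferase gene fng, whose product modifies the Notch receptor, had 535, 539 and 496 in R7, against 1730, 1848 and 1488 in R3, 3.22-fold lower (log2 SE 0.12, limma adjusted p = 0.00369). E(spl)mdelta-HLH, a repressor gene that Notch induces, had 273, 419 and 309 in R7, against 108, 75.6 and 54.4 in R3, a difference of 2.10 (log2, adjusted p = 0.0198). The call for fng held without any 1 array. The receptor gene itself was not analysed here.

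Genes known from neural precursors and neurons were called in a few cases. Of the called list members, fne was weak in both lines, with 66.2 to 93.0 in R7 and 33.6 to 41.5 in R3. Of 4 tested neuroblast markers, 1 was higher, and of 8 tested neuron and glia markers, 2 were higher and 0 lower, against 1.44% of all genes called higher. The neuroblast adaptor gene mira, which localises fate determinants, had 325, 201 and 359 in R7, against 61.6, 51.2 and 57.9 in R3, 5.05-fold higher (log2 SE 0.23, limma adjusted p = 0.00813). The microtubule-associated protein gene futsch had 311, 473 and 437 in R7 and 125, 98.8 and 153 in R3, 3.24-fold higher (adjusted p = 0.0186). A second, dim probe set of futsch had 23.3 to 35.9 in R7 and 22.1 to 34.7 in R3.

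The Elav-family gene fne was 2.03-fold higher in R7 (limma adjusted p = 0.0345), while elav itself had 531, 800 and 639 in R7 and 566, 433 and 588 in R3 and was not called. Other members of these lists were lower in R7 without overlap. The gene moody, a receptor gene of the glial blood-brain barrier, had 631, 814 and 619 in R7 and 1437, 1738 and 939 in R3 (limma adjusted p = 0.109, and 0.0186 without R3 P19 and 0.00872 in the fit of 18 arrays, where it was called lower). The neuroblast adaptor gene insc had 60.2, 76.1 and 74.5 in R7 and 97.5, 115 and 310 in R3 (adjusted p = 0.245). The neuroblast genes ase, pros, grh, wor and dpn were not tested, because they lay above the floor on fewer than 2 late arrays. Of the 10 neuroblast markers that failed this filter, 7 lay at the floor on all 6 arrays. Outside the lists and chosen after their values were seen, nerfin-1 and insb, regulators of neuronal differentiation, were called higher with and without each array. The gene nerfin-1 had 124, 111 and 140 in R7 and 36.0, 19.7 and 31.6 in R3, and insb had 76.3 to 88.8 in R7 and 27.1 to 35.8 in R3.

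Of 13 heparan sulfate and glypican genes tested, 1 was higher, Hs3st-A, against 1.44% of all genes. The second 3-O-sulfotransferase gene, Hs3st-B, had 84.9, 265 and 185 in R7 and 51.7, 40.2 and 20.5 in R3, without overlap, but was not called (limma adjusted p = 0.0732). The list median was -0.11 (log2), beside -0.01 for all genes.

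Of 18 tested Toll and Imd genes, 1 was lower and 0 higher, against 0.747% and 1.44% of all genes. In 6 all R7 arrays lay below all R3 arrays and in 1 above, against 10.7% and 15.3% of all genes. Without R3 P19, 2 were lower and 0 higher, against 3.45% and 3.65% of all genes. The called member was spz, which encodes the ligand of the Toll receptor, with 201, 200 and 98.6 in R7 and 642, 779 and 449 in R3, 3.84-fold lower (limma adjusted p = 0.0462). Spn27A, a serpin gene that acts upstream of Toll and was chosen after its values were seen, was 2.97-fold lower (adjusted p = 0.0174). The Toll adaptor gene tub lay in the other direction, with 1010, 949 and 1111 in R7 and 813, 777 and 596 in R3, without overlap (adjusted p = 0.149, and 0.0475 in the fit of 18 arrays, where it was called higher).

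Of 18 haemocyte markers, 0 were called by limma with all 6 arrays (3 were lower at an unadjusted p under 0.05, beside 7.2% of all genes), and 3 were lower without R3 P19, where 3.45% of all genes were. Hml, a clotting protein gene of haemocytes, had 24.6, 40.4 and 12.1 in R7 and 374, 446 and 78.4 in R3, with limma adjusted p = 0.0872 with all arrays and 0.000874 without R3 P19. Ppn, a matrix protein gene, had 618, 1171 and 626 in R7 and 2220, 2487 and 1806 in R3 (adjusted p = 0.0552, and 0.0423 without R3 P19). He, a haemocyte surface protein gene, had 97.2, 74.0 and 61.6 in R7 and 143, 164 and 2042 in R3 (adjusted p = 0.310, and 0.0496 without R3 P19). The list's summed intensity was 15100 to 18220 in R7 and 18550 to 25520 in R3, and its median was -0.47 (log2). In these bulk samples, fewer cells of a type and less RNA per cell cannot be told apart.

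Regulators of adult muscle precursors held no call. Of 6 tested members 0 were called by limma, also without R3 P19, and 2 were higher at an unadjusted p under 0.05, beside 11.3% of all genes. The mesoderm gene twi had 2129, 1613 and 2118 in R7 and 1582, 1366 and 963 in R3 (adjusted p = 0.218), so its groups did not overlap, and zfh1 had 1809, 1751 and 1721 in R7 and 2045, 2111 and 1427 in R3. The FGF receptor gene htl had 3152, 2274 and 2903 in R7 and 3646, 2803 and 2424 in R3. All 3 genes were bright in every late array of both lines. Him, a repressor of muscle differentiation, had 46.3, 68.9 and 84.9 in R7 and 47.0, 29.95 and 440 in R3, so its direction changed with R3 P19. Among heart and blood progenitor genes, mid was the 1 of 6 tested members that was called, beside 1.44% of all genes called higher. The GATA factor gene srp had 623, 651 and 452 in R7 and 975, 1286 and 304 in R3.

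The remaining lists held few or no calls. Of 9 tested apoptosis regulators, 1 was higher, beside 1.44% of all genes. This was skl, a cell death activator gene, with 76.6 to 99.99 in R7 and 21.4 to 29.3 in R3, at least 2.69-fold higher (limma adjusted p = 0.00669). Of 18 mitosis genes 1 was higher, beside 1.44% of all genes: the spindle checkpoint gene mad2 (0.58 on the log2 scale, limma adjusted p = 0.0469). Of 20 DNA replication genes 0 were called, with 4 higher at an unadjusted p under 0.05, beside 11.3% of all genes. Of 10 glycolysis genes 0 were called by limma (5 were lower at an unadjusted p under 0.05, beside 7.2% of all genes), and in 6 all R7 arrays lay below all R3 arrays, beside 10.7% of all genes, and the list median was -0.37 (log2). Its member Pfk, the phosphofructokinase gene, had 292, 525 and 211 in R7 and 872, 633 and 782 in R3 (adjusted p = 0.119). The sex determination list had 0 of 15 called, with 1 higher at an unadjusted p under 0.05, a share below the 11.3% of all genes. That member was msl-2, with 245, 286 and 302 in R7 and 158, 191 and 202 in R3, without overlap. Its limma adjusted p was 0.0901, 0.0503 without R3 P19 and 0.0112 in the fit of 18 arrays, where it was called higher. Sxl, the master gene of sex determination, had 688, 755 and 663 in R7 and 830, 803 and 714 in R3. A second probe set of Sxl had 431.7, 462.1 and 455.3 in R7 and 675.2, 591.5 and 541.5 in R3, without overlap (limma adjusted p = 0.131). None of the 4 Hox genes with a probe set passed the filter. Of 18 epithelial junction and polarity genes 1 was higher, fred, and 1 lower, ed, beside 1.44% and 0.747% of all genes. In 8 all R7 arrays lay below all R3 arrays, beside 10.7% of all genes. At an unadjusted p under 0.05, 1 was higher and 5 were lower, beside 11.3% and 7.2% of all genes. Of 10 sarcomere genes and 8 myoblast fusion genes 0 were called, with 3 and 4 lower at an unadjusted p under 0.05, beside 7.2% of all genes. Without R3 P19 1 and 2 were lower, beside 3.45% of all genes. Of 11 EGFR and Ras pathway genes 0 were called with all arrays, with 3 higher and 2 lower at an unadjusted p under 0.05, beside 11.3% and 7.2% of all genes. Without R3 P19, 2 were higher and 1 lower, beside 3.65% and 3.45% of all genes. Among these, aos, the secreted EGFR inhibitor gene, had 2437, 2404 and 2322 in R7 and 916, 1025 and 1908 in R3 (adjusted p = 0.134, and 0.00384 without R3 P19).

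**Figure D2:**
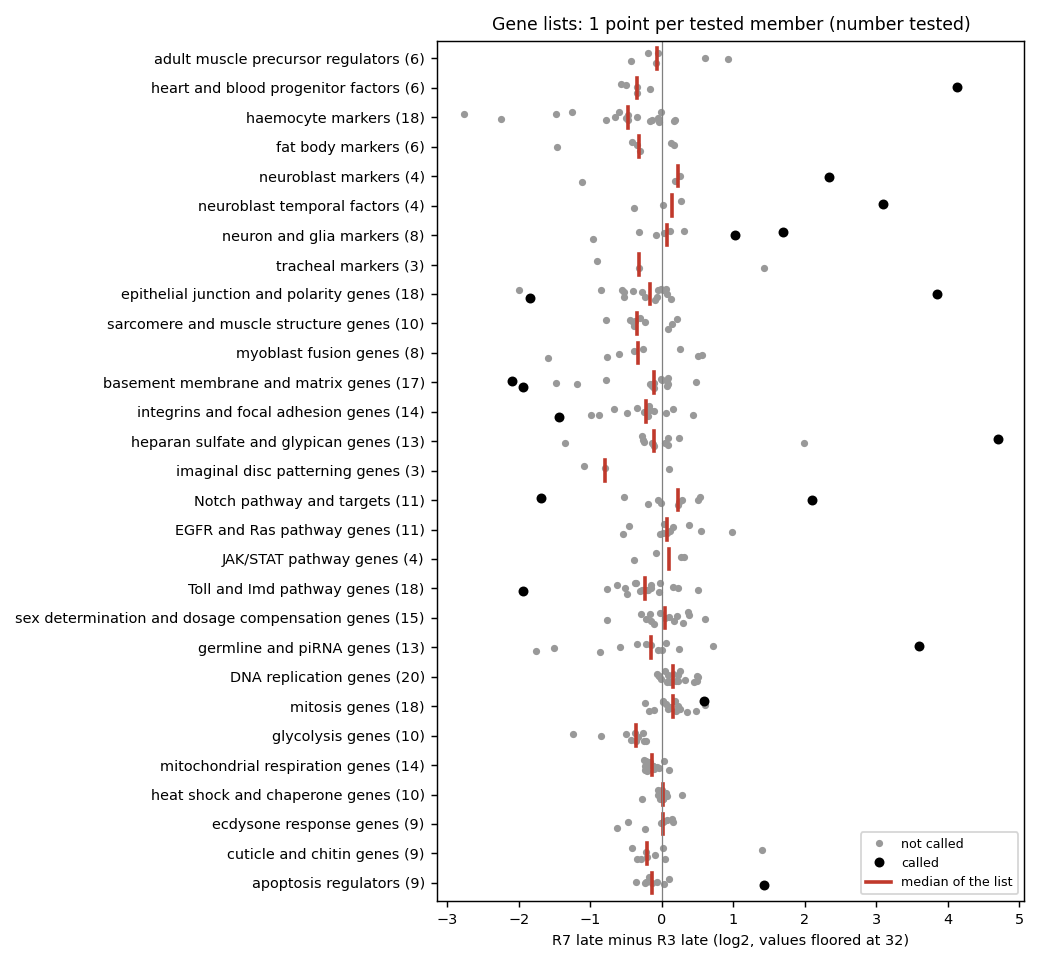
Difference R7 late minus R3 late (log2, values floored at 32) of each tested member of the gene lists, 1 point per gene, with called members in black and the list median as a red bar. Most members lie near 0, and single called members such as Hs3st-A (4.70), mid (4.13) and fred (3.85) lie far from the median of their list.

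Which genes differed between the lines depended on R3 P19 for most calls. Without it, 627 probe sets were called, and for 271 of these R3 P19 lay nearer the R7 mean than the mean of R3 P16 and P17. Of these 271, 186 were lower and 85 higher in R7. The gene firl had 304, 301 and 144 in R7 and 1404, 1917 and 38.2 in R3, and Cpr12A, a cuticle protein gene, had 96.5, 112 and 190 in R7 and 904, 1405 and 101 in R3. Pgant2, which encodes an enzyme that starts O-glycan chains, had 81.2, 100 and 73.9 in R7 and 959, 943 and 216 in R3, and PKD, the protein kinase D gene, had 6.46, 12.1 and 6.55 in R7 and 261, 207 and 51.7 in R3. In CG30356 the R3 values were 205, 209 and 72.7, against 32.5 to 33.4 in R7. These genes and Hml were the 6 largest falls of this kind, with limma adjusted p between 0.000874 and 0.0179 without R3 P19 and between 0.0578 and 0.784 with it.

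In the other direction, R3 P19 was above the other R3 arrays. NaPi-III, a phosphate transporter gene, had 307, 334 and 440 in R7 and 97.1, 78.3 and 542 in R3, and bero, a Ly6-family gene, had 692, 455 and 578 in R7 and 198, 129 and 2243 in R3. Cpr49Ac, another cuticle protein gene, had 1239, 444 and 1064 in R7 and 136, 138 and 1718 in R3. For mthl8, Agpat2 and hpRNA:CR32207, R3 P19 lay between the lines, with 103, 403 and 787. A second probe set of mthl8 was called with all 6 arrays (limma adjusted p = 0.0201). CG31676, a Ly6-family gene, was at the floor in R7 and had 35.1, 43.4 and 6765 in R3, so the lines did not overlap, but R3 P16 and P17 lay near the floor and R3 P19 far above all 5 other late arrays.

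**Figure D3:**
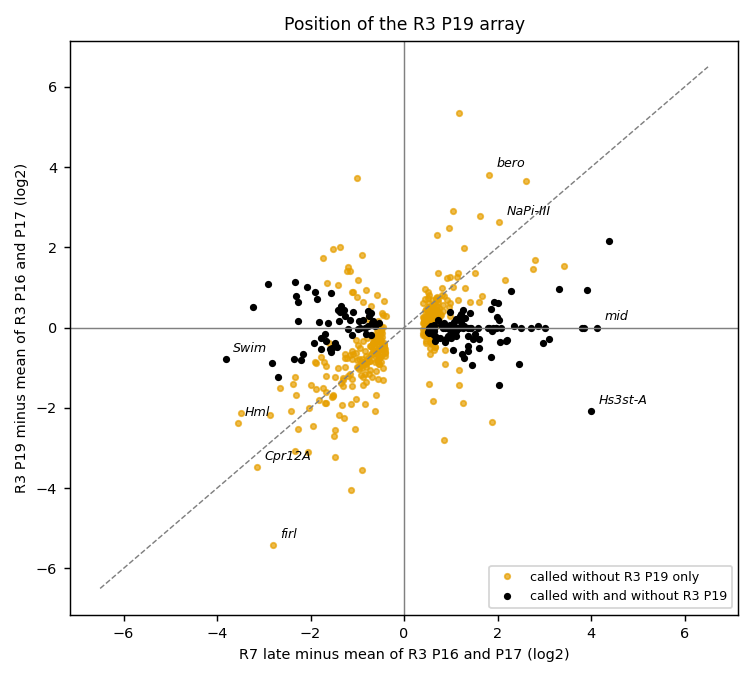
For the 504 genes called without R3 P19, the difference R7 late minus the mean of R3 P16 and P17 (log2, horizontal) against R3 P19 minus the same mean (log2, vertical). Points on the dashed line are genes in which R3 P19 equals the R7 mean. R3 P19 lies nearer R7 than the other R3 arrays in 0 of the 155 genes called with all 6 arrays (black). That fit included R3 P19 among the R3 arrays, which selects against genes with R3 P19 near R7. The count of 0 therefore cannot show where R3 P19 lies.

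The genes also differed by their place on the chromosomes. On 3L the median difference of 1414 tested genes was 0.19 (log2, R7 minus R3), while it was -0.07 on 2L, -0.07 on 2R, -0.03 on X and -0.01 on 3R. With equal array medians all genes together were at 0.08, and 2L, 2R and X turned to 0.02, 0.03 and 0.06, so the arms are best read against the median of all genes. On chromosome 4 the median of 48 genes was -0.26. Among genes with a mean intensity over 256, the 3L median was 0.23 (763 genes) and that of chromosome 4 was -0.19 (26 genes). The share of genes called higher with all arrays was 2.05% on 3L, 1.75% on 3R and 1.66% on X. It was 1.05% on 2R and 0.639% on 2L, beside 1.44% of all genes. Without R3 P19 the shares were 7.92% on 3L, 4.08% on 3R and 3.4% on X. On 2L and 2R they were 1.36% and 1.32%, beside 3.65% of all genes. On chromosome 4, 3 of 48 genes were lower and 0 higher, beside 0.747% and 1.44% of all genes. Without R3 P19, 7 were lower and 0 higher there, beside 3.45% and 3.65% of all genes.

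The near-zero median of 3R hid a step. In groups of about 62 neighbouring tested genes, taken in the order of the RefSeq table (Release 6), which starts 3R at the centromere, the first 7 groups of 3R had medians of 0.24 to 0.32 (log2). The 8th group, from CG31467 to CG5281, had 0.03, and the 10th, from GstD5 to Elp6, had -0.14. All 23 groups of 3L had positive medians, from 0.08 to 0.30. The first 7 groups, from Alg-2 to CG14683, held 434 genes with a median of 0.29, and the other 1282 genes of 3R had -0.08. This boundary was set after the values were seen.

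The shift was of similar size in each R7 late array and the R3 late arrays, R3 P19 included, lay near 0. As the median deviation of the 3L genes from their own means over the 18 arrays, relative to all genes of the array, it was 0.146, 0.177 and 0.180 (log2) in R7 and -0.025, -0.033 and -0.022 in R3. For the first groups of 3R it was 0.213, 0.221 and 0.253 in R7, against -0.047, -0.057 and -0.054 in R3. For chromosome 4 it was -0.227, -0.223 and -0.169 in R7, against 0.062, -0.001 and -0.004 in R3. The lines did not overlap on any of these segments. The difference between the lines was 0.19 on 3L and -0.23 on chromosome 4 (3 arrays each), and the exact permutation test, two-sided, gave p = 0.1 for both, and also for 2L and 2R, the smallest value that 3 against 3 arrays allow (0.15 after adjustment over 6 arms). For X it gave 0.3 and for the whole of 3R 0.5. The differences on 2L and 2R were -0.07 and -0.06. The tests of the 6 arms are not independent, because values relative to all genes fall on the other arms when those of 3L rise.

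**Figure D4:**
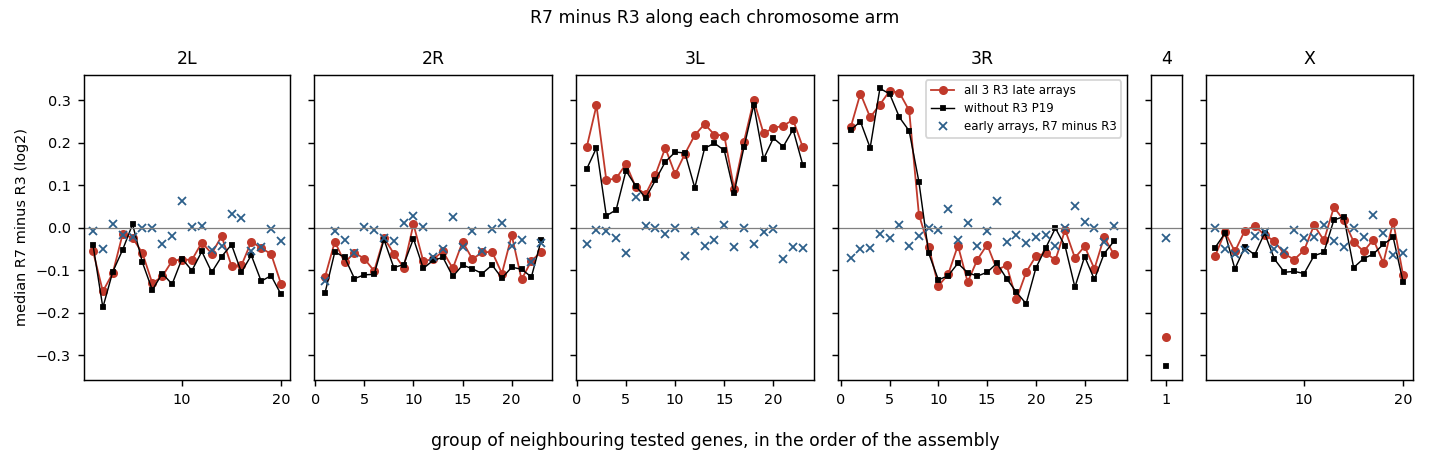
Median difference R7 minus R3 (log2) in groups of neighbouring tested genes along each chromosome arm, for the late arrays with (red) and without (black) R3 P19, and for the early arrays (crosses). With all late arrays the medians lie between 0.08 and 0.30 along 3L and between 0.24 and 0.32 in the first 7 groups of 3R, and turn below 0 after the 8th.

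Along the passages, the 3L value of R7 was near those of R3 at first and lay higher at each later passage number. It was -0.056 and -0.052 (log2) in the R7 P2 replicates, -0.041 at P3, -0.030 at P4, -0.004 at P7 and 0.058 at P8. The R3 arrays of all passages lay between -0.052 and -0.014. The chromosome 4 value of R7 had no such steady course: it was 0.051 and 0.012 in the P2 replicates, 0.128 at P3, 0.199 at P4, 0.041 at P7 and -0.090 at P8, and the R3 P2 replicates had 0.085 and 0.101. From P7 on, each R7 array lay above all 9 R3 arrays on 3L.

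**Figure D5:**
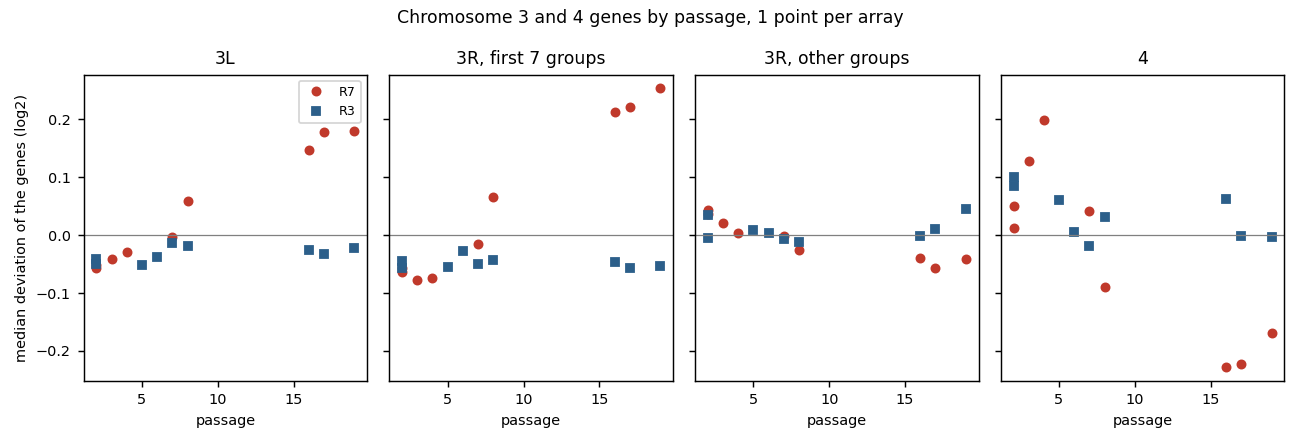
Median deviation (log2) of the genes of 3L, of the first 7 groups of 3R, of the rest of 3R and of chromosome 4, relative to all genes, against passage, with 1 point per array. The 3 late R7 arrays lie at 0.146 to 0.180 on 3L and at -0.227 to -0.169 on chromosome 4, apart from all R3 arrays.

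Genes of 3L and the first groups of 3R made up 26.1% of the tested genes with a known arm and 41.2% of the 102 genes called higher, or 61.0% of those called without R3 P19. In the fit of all 18 arrays (472 genes with a known arm higher), they made up 71.0% of the genes higher in R7. All 3 R7 arrays lay above all 3 R3 arrays in 39.0% of these genes and in 6.93% of the other genes. Because the boundary on 3R was set after the late values were seen, these shares are partly fixed by that choice. On 3L alone, which does not depend on the boundary, all R7 arrays lay above all R3 arrays in 35.2% of genes, beside 15.3% of all genes. Of the 42 genes of 3L and the first groups of 3R called higher with the 6 arrays, 22 differed at least 2-fold. Of the 12 largest rises, opa and Syn1 lay on 3L or in the first groups of 3R. Of the 12 largest falls, CAH2, CG6836, Argk1, ko and Timp lay there, and so did the called gene fng. These genes were lower in R7, against the direction of their segment.

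The line differences of the late arrays were in most cases under 2-fold at earlier passages. Of the 155 genes called, 110 had the same sign at the intermediate stage (R7 P7 and P8 against R3 P5 to P8), 17 differed at least 2-fold the same way and 2 the other way. The median difference at that stage was 0.33 (log2) for the genes called higher, -0.04 for those called lower and 0.00 for all tested genes. At the early stage (P2 and P3 in R7, P2 in R3) 76 of the 155 had the same sign, 13 differed 2-fold the same way and 7 the other way. The R3 side of the early stage rests on 2 P2 replicates that differed across the array. Replicate 1 correlated at 0.949, 0.948 and 0.993 (Pearson r, log2 values) with R3 P16, P17 and P19, and replicate 2 at 0.972, 0.971 and 0.951. They had 158 and 959 for Kr and 1616 and 146 for Swim. The early counts therefore rest on a mean of unlike R3 arrays. The share of all genes that differed 2-fold was not counted at either stage. These stages were measured on other arrays, and R7 P4 is in neither. The gene mid differed already at these stages, with a mean intensity of 925 in R7 and 26.9 in R3 intermediate arrays and of 84.9 in R7 early arrays, against 11.3 and 19.8 in the R3 P2 replicates.

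Hs3st-A averaged 165 in R7 and 131 in R3 at the intermediate stage, and its 2 R7 values there, 113 and 217, overlapped the R3 range of 87.7 to 176. Kr averaged 672 in R7 and 747 in R3 at the intermediate stage, and its late levels lay above this in R7 and below it in R3. For fng the intermediate means were 1387 in R7 and 1561 in R3, near the late R3 level. For Swim the intermediate values were 130 and 135 in R7, within the range of its late values, and 174, 243, 357 and 1262 in R3 (P5 to P8), so the R3 mean of 509 rests largely on P8.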

How the data were processed

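The members and gene lists were chosen with earlier results of these data known. The deposited table holds intensity per probe set on a linear scale, as summarised by the authors, with a method of summary and scaling not given in the sources used here. Of 18952 probe sets, 183 controls were left out. Values were floored at 32 and taken to log2. Probe sets above 32 on at least 2 of the 6 late arrays were tested by lmFit and eBayes of limma 3.58.1 under R 4.3.3 (R7 late minus R3 late, Benjamini-Hochberg over 8981 probe sets, alpha 0.05), and the code was tested on simulated data. A fold is written "at least" where all arrays of a line lie at the floor and all of the other above it. Standard errors are limma's. The alternatives tried were the floor, the filter, the normalization, a trended prior, array weights, the fit of 18 arrays, passage as a block and leaving out each array.

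Gene names came from the platform annotation, updated through Entrez numbers: 13646 non-control probe sets had 1 symbol, 402 several and 4721 none. Gene order came from the RefSeq Release 6 table, and no coordinates are given.

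Named genes were the 12 largest called differences in each direction without overlap, the 6 largest in each direction that were called without R3 P19 while R3 P19 lay nearer R7, up to 4 members per list by adjusted p, and 6 genes put forward by earlier results. Other genes named are said to be chosen after their values were seen, or are members of the lists given as values.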

Additional observations from a re-analysis of the deposited data

How the results depend on the processing

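The count of 192 called probe sets was 142 at a floor of 16, 143 at 64, 215 when arrays were quantile normalized and 162 when their medians were made equal, where the median of all tested probe sets was 0.07 (log2). It was 7 with no filter on low values, where 1630 had a raw p under 0.05, 816 with all 18 arrays in 1 limma fit, 863 in such a fit without R3 P19 (chosen after seeing the data) and 1266 with array quality weights, which gave R3 P19 a weight of 0.169. Leaving out 1 array gave 38 to 627: 38 without R7 P19, 42 without R3 P17, 76 without R7 P16, 81 without R3 P16, 83 without R7 P17 and 627 without R3 P19. The share of calls that were higher, 63.0%, was 48.8% without R3 P19 and 49.8% with array weights. With passage as a replicate block the count was 65. The shared passage numbers do not pair the arrays: the deviations of same-passage arrays correlated at -0.088, 0.040 and 0.020.

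Of the 155 genes called with 6 arrays, 0 changed sign under any alternative, but many lost the call. The call was lost in 61 at a floor of 16 and in 37 of the 147 genes compared at a floor of 64. It was lost in 42 with equal array medians, in 101 with passage as a block and in 149 with no filter. Fewer lost it with quantile normalization (11), in the fit of 18 arrays (8) and with array weights (0). Among the genes not called, Him was 0.738 without R3 P19, 0.738 also in the fit of 17 arrays and 0.505 with array weights, against -0.430; without any 1 array it ranged from -1.153 to 0.738. Leaving out 1 array, bero ranged from -0.233 (without R3 P17) to 1.826, and firl from -2.797 to 0.029 (without R3 P17). Sign changes near 0 also occurred in uncalled genes of the report: with equal array medians htl was 0.013 and zfh1 0.038, and leaving out 1 array gave -0.37 to 0.003 for Col4a1, -0.481 to 0.023 for vkg, -0.217 to 0.078 for htl, -0.24 to 0.043 for zfh1 and -0.979 to 0.062 for srp. Relative to all genes, the 3L median was 0.227 at a floor of 64, and that of chromosome 4 was -0.207 at that floor and -0.293 without R3 P19.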

Other observations

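The 27 genes called with all arrays and without each array in turn include genes outside the 24 of largest difference, named here after their values were seen. Mip, which encodes a neuropeptide precursor, had 104, 157 and 151 in R7, against 4.47, 4.76 and 8.91 in R3, at least 4.22-fold higher (limma adjusted p = 0.0065). The paralogous genes beat-IIa and beat-IIIc, of a family of axon guidance proteins, differed in opposite directions. The gene beat-IIa had 112, 93.1 and 132 in R7 and 21.7 to 27.2 in R3, at least 3.48-fold higher (adjusted p = 0.0062), and beat-IIIc had 24.5 to 31.1 in R7 and 109, 117 and 124 in R3, at least 3.64-fold lower (adjusted p = 0.00227).

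The cadherin gene stan, of planar polarity, was higher in R7, with 90.5, 84.5 and 114 in R7 and 28.4 to 39.4 in R3 (limma adjusted p = 0.00955). HipHop, a telomere capping gene on 3L, had 971, 966 and 1120 in R7 and 482, 466 and 448 in R3, 2.18-fold higher (adjusted p = 0.00744). The calcineurin subunit gene CanA-14F was 2.06-fold higher (adjusted p = 0.00744), and the kinase gene Dyrk2 was 3.19-fold lower, with 149, 128 and 176 in R7 and 425, 508 and 506 in R3 (adjusted p = 0.00717). The arrays of the lines did not overlap in any of these genes, as in all 192 called probe sets.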
